A study of Mus musculus with 10 samples.

Results

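The genes described here are the nuclear genes of the mitochondrial respiratory chain and ATP synthase, taken as all non-control probes whose gene name starts with Nduf followed by a, b, c, f, s or v, with Uqcr, with Cox4 to Cox8 or with Atp5, or is Sdha, Sdhb, Sdhc or Sdhd. The name rule found 90 genes, with 121 probes, among 36315 genes named on the array. Of these, 86 genes were bright enough to be tested, among 18056 genes tested in all. They comprise 40 genes of complex I, 4 of complex II, 8 of complex III, 16 of complex IV, 15 of complex V and 3 whose names match but whose products are not subunits (Cox4nb, Atp5s and Atp5sl). The rule used names alone and no measured value.

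RNA was measured in RAW264.7 cells, an established mouse macrophage-like line, on 10 one-colour arrays in 5 groups of 2. The solvent group is EtoH. Dex stands for dexamethasone and FF for fluticasone furoate, and the other glucocorticoids, VSG22 and VSGC12, are given by code name only. A glucocorticoid, a steroid hormone that acts through the glucocorticoid receptor, was given at 100 nM for 1 hour, and LPS (lipopolysaccharide, from the outer membrane of bacteria, a strong activator of macrophages) was then given at 1 µg/ml for 16 hours. The labels do not state whether the EtoH cells received LPS, so EtoH is read only as solvent without glucocorticoid. If the EtoH cells received none, LPS and glucocorticoid cannot be told apart in any difference from EtoH. They also do not state whether the arrays of a group came from separate cultures, so p-values measure the spread between these samples, which may be technical.

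In the respiratory chain, complexes I and II pass electrons from NADH and succinate to coenzyme Q, complex III passes them to cytochrome c, and complex IV, cytochrome c oxidase, passes them to oxygen. Complexes I, III and IV pump protons as they do so, and complex V, the ATP synthase, uses the proton gradient to make ATP. Macrophages activated with LPS are known to turn from respiration towards glycolysis. Most subunits are encoded in the nucleus and imported, and a few are encoded in mitochondrial DNA.

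Promoters are shown first because many respiratory chain genes are known to share binding motifs of the factors NRF1, ETS (the family of GABP) and YY1. The RefSeq promoter table of GRCm38.p6 gives 250 bases before to 50 bases after a gene's start, and 72 of the 87 genes other than the 3 look-alike names matched it by symbol, with 77 promoters. The motifs searched on both strands were an NRF1 motif, CCGGAAG for ETS, AAGATGGC for YY1 and the palindromic glucocorticoid receptor motif. The NRF1 motif allows any base at a position near its middle and is not palindromic. Matches of each motif were counted separately, and matches of different motifs may overlap. The NRF1 motif was in 24.7% of these 77 promoters and in 4.6% of the 32851 promoters in the table. The ETS motif was in 22.1% and 8.86%, and the YY1 motif in 13.0% and 2.75%. At least 1 of these 3 motifs was in 51.9% of the respiratory chain promoters against 14.7% of all. The glucocorticoid receptor motif was in 0 of the 77 and in 0.475% of all. A match describes letters and is not a binding site, and the lack of a match says only that these letters are not in this window.

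The following 4 promoters belong to genes that rose with every glucocorticoid and show each motif in place, with the motif in capitals, 5′ to 3′ on the gene's strand. Atp5k encodes subunit e of the ATP synthase, Ndufb4 and Ndufb6 encode membrane-arm subunits of complex I, and Ndufs7 encodes an iron-sulfur subunit of complex I. The Atp5k window (chr5:108434350-108434649, minus strand) holds an NRF1 and an ETS match, and the Ndufb4 window (chr16:37654319-37654618, minus strand) holds 3 NRF1 matches. The Ndufb6 window (chr4:40279372-40279671, minus strand) holds an ETS match, and the Ndufs7 window (chr10:80249199-80249498, plus strand) holds a YY1 match.
Atp5k: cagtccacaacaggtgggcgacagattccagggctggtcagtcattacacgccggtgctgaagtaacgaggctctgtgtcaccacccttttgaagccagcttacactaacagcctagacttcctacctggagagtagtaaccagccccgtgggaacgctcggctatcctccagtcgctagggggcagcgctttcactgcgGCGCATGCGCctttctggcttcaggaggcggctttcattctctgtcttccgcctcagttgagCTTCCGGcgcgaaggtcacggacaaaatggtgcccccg
Ndufb4: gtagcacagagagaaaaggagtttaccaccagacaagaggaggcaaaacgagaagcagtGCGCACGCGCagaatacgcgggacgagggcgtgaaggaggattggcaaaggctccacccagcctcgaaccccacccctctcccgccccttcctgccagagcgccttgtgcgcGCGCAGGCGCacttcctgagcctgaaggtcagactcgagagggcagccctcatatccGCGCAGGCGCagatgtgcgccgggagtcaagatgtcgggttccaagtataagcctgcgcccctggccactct
Ndufb6: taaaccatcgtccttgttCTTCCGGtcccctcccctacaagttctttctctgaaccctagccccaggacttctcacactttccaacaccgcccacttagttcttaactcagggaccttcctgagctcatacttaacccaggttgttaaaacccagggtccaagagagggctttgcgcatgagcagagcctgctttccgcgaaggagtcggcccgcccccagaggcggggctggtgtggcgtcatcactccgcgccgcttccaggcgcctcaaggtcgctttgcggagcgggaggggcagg
Ndufs7: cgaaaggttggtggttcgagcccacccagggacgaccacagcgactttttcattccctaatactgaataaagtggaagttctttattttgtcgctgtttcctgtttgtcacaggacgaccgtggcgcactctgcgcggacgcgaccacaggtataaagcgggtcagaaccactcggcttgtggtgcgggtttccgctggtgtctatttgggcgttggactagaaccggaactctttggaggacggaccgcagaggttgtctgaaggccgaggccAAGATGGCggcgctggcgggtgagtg
The genes with the highest changes in complexes III and V, Uqcr10 and Atp5g1, had none of the 4 motifs in their windows. Of 18 tested genes with an NRF1 match, 14 rose for the mean of the 4 glucocorticoids, with a median log2 change of 0.38. Of 52 without one 35 rose or fell, with a median of 0.26. For ETS the counts were 11 of 17 with a match and 38 of 53 without, with medians of 0.28 and 0.31. For YY1 they were 5 of 10 and 44 of 60, with medians of 0.24 and 0.30. The counts without a match each include Cox6b2, which fell. Among these 3 motifs, the share of genes that rose was higher with a match than without for NRF1 and lower for ETS and YY1, and these differences were not tested.

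A level is given below as log2 signal relative to the array's own 75th percentile, and a change as a difference of such log2 levels, so that a change of 1 is a doubling. A gene is said to have risen or fallen where limma's test gave a p-value under 0.05 after Benjamini-Hochberg adjustment over all genes tested. Levels of different genes come from different probes and are not set against each other. Of the 86 genes, 85 were well above background on all 10 arrays, and Cox6b2 was on 9. The macrophage markers Adgre1, Cd68, Csf1r, Lyz2, Itgam, Fcgr1, Spi1 and Cd14 were above background on all 10 arrays, and the 4 B cell and 4 epithelial markers on 0. The summed linear signal of the 8 macrophage markers, relative to the 75th percentile, was 508 and 509 in EtoH and 615 to 684 on the treated arrays, with Itgam, Csf1r and Lyz2 higher and Adgre1 lower. Of the 4 neutrophil markers, Elane and S100a8 were above background on all 10 arrays (summed signal 55.6 and 71.1 in EtoH, 70.9 to 164 on the treated arrays), Mpo on 1, and Ly6g had no probe matched by name. Of the T cell markers Cd3e alone was detected on all 10 arrays (summed signal 0.862 and 1.06 in EtoH, 0.753 to 1.13 on the treated arrays), and of the fibroblast markers Dcn alone was detected, on 8 (summed signal 0.149 and 0.232 in EtoH, 0.0898 to 0.367 on the treated arrays). The part of these markers in the results was not tested. In bulk RNA, fewer cells of a type and less RNA per cell cannot be told apart.

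With glucocorticoid, most genes of the chain rose by a modest amount. For the mean of the 4 glucocorticoids against EtoH, 56 of the 86 genes rose (65.1%) and 1 fell, where 21.6% of all genes tested rose and 22.5% fell. Of the 1311 genes whose probe signal lay in the interquartile range of these genes, 33.4% rose. The median change was 0.29 over the 86 genes, 0.10 over the genes in that signal range and -0.004 over all genes. Changes among the genes that rose ran from 0.18 to 0.79, that is, all were below a doubling. All 8 treated arrays lay above both EtoH arrays for 57 of the 86 genes (22.9% of all genes) and below both for 4 (24.7% of all genes). Within slide 1 the difference was above 0 for 79 genes, within slide 2 for 78 and on both for 77, with medians of 0.31 and 0.30. With the slide as a block 55 rose and 2 fell. The call counts lean on the EtoH arrays: 31 genes rose without EtoH replicate 2 and 35 without EtoH replicate 1, while the median change stayed at 0.27 and 0.32. Subtracting each array's median in place of its 75th percentile left 24 that rose. Yet the median change of the 86 genes was then 0.41 and that of all genes 0.118. Without a filter on dim probes 31 of 90 rose.

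**Figure D1:**
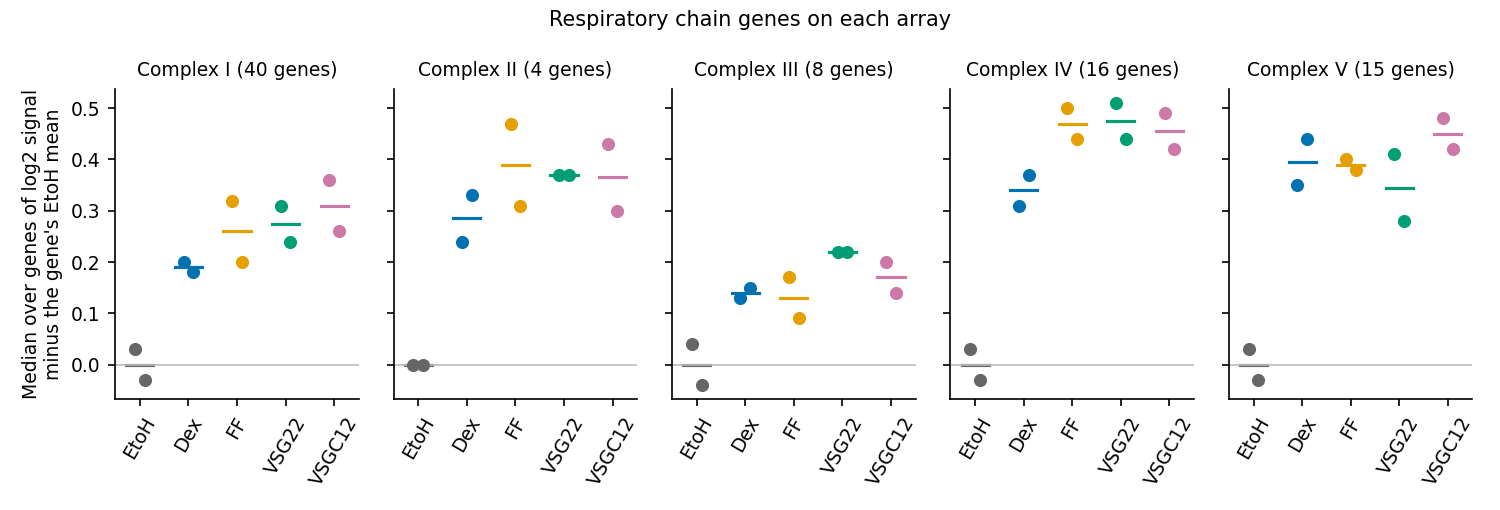
Median over the genes of each complex of the log2 level minus the gene's EtoH mean (vertical axis), for each of the 10 arrays by group; dots are arrays and bars the mean of the 2 arrays. Every treated array lies above both EtoH arrays in all 5 complexes, from 0.09 in complex III on an FF array to 0.51 in complex IV on a VSG22 array.

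**Figure D2:**
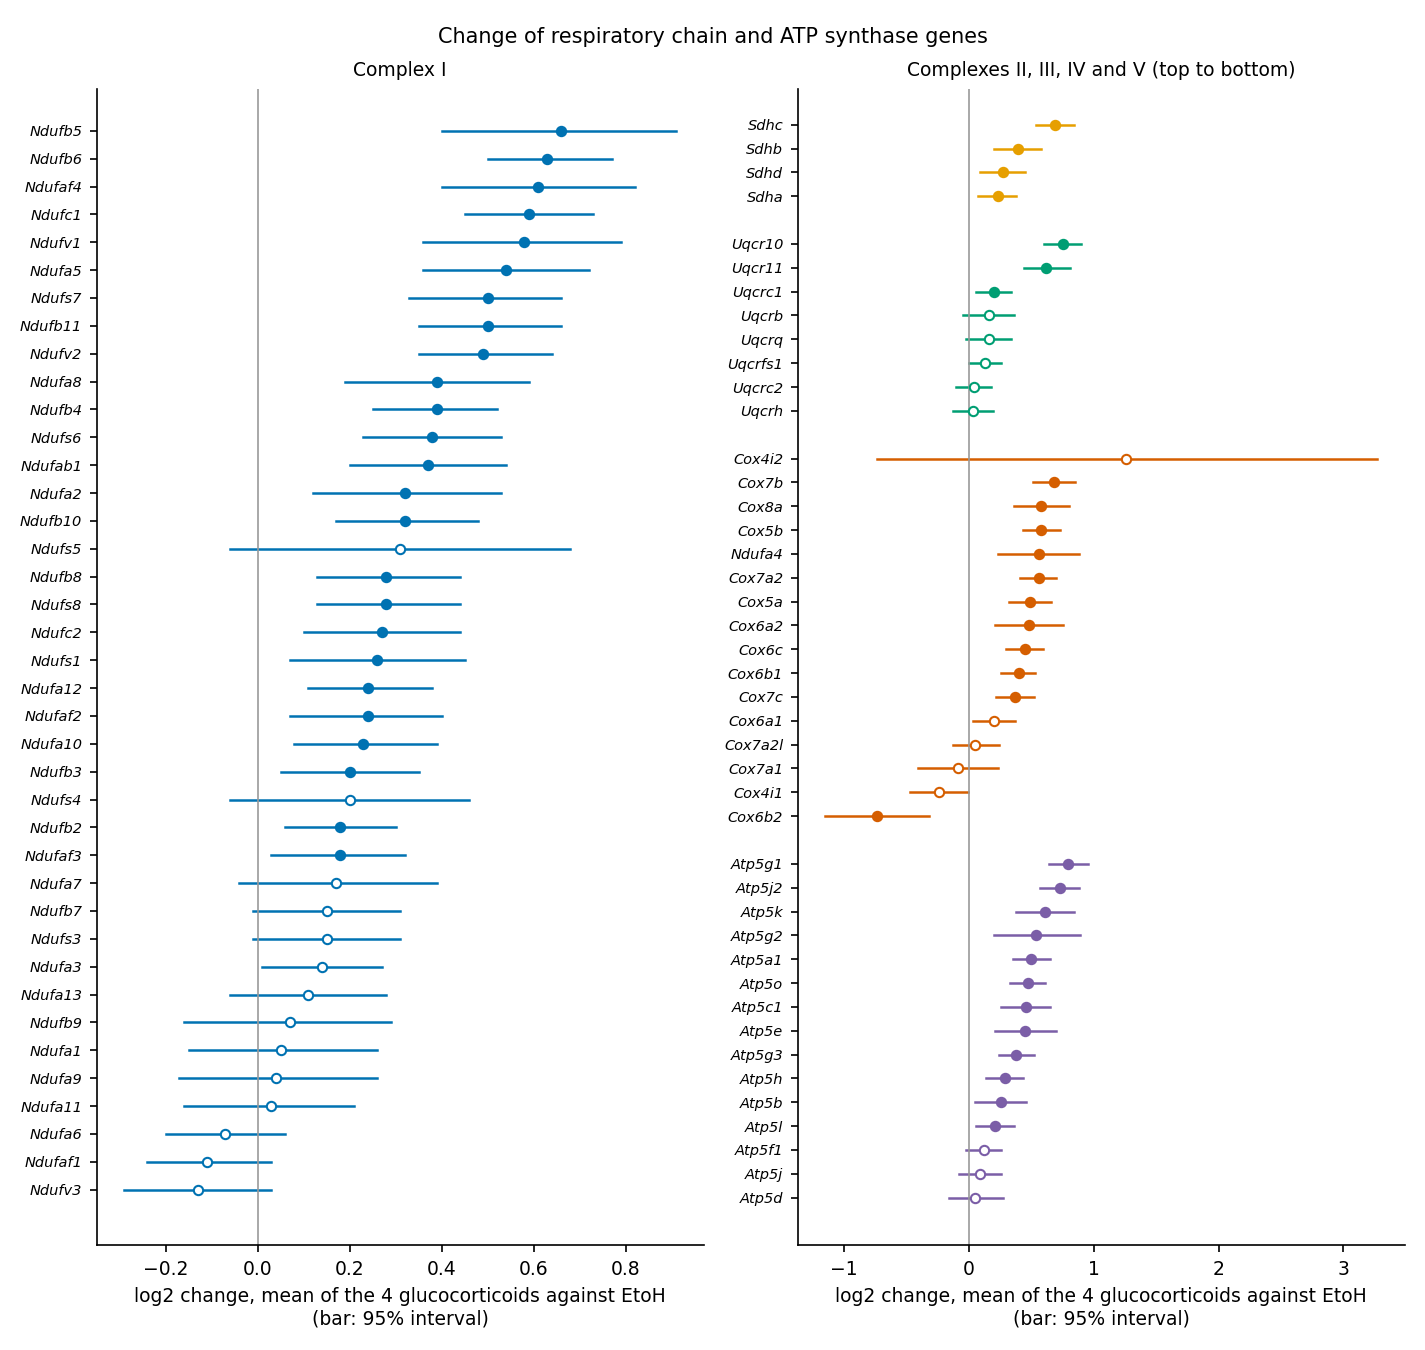
Log2 change of the genes of complexes I to V, other than 1 that is not reported by name, for the mean of the 4 glucocorticoids against EtoH (horizontal axis), with 95% intervals from limma; filled dots passed the adjusted threshold and open dots did not. The horizontal scales of the panels differ. Genes that rose run from 0.18 to 0.79, Cox6b2 stands at -0.74, and Cox4i2 has the widest interval, from -0.74 to 3.27.

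Complex I, the NADH dehydrogenase, had 25 of 40 genes that rose and 0 that fell, with a median change of 0.25. Its highest changes were in accessory subunits of the membrane arm and in an assembly factor. Ndufb5, a membrane-arm subunit, was at 5.97 and 5.90 on the EtoH arrays, and at 6.43 and 6.83 in Dex, 6.62 and 6.71 in FF, 6.51 and 6.40 in VSG22 and 6.64 and 6.56 in VSGC12. All 8 treated arrays were above both EtoH arrays, with a change of 0.66 ± 0.11 (SE; limma adjusted p = 0.003). Ndufb6, another membrane-arm subunit, was at 5.47 and 5.44 in EtoH and between 5.96 and 6.17 on the treated arrays, with no overlap. Its change was 0.63 ± 0.06 (adjusted p = 0.00026 by limma) on its brighter probe and 0.12 on its other probe, which did not pass, and 0.38 with the mean of both. Ndufaf4, an assembly factor, was at 2.93 and 2.80 in EtoH and between 3.26 and 3.59 on the treated arrays. It rose by 0.61 ± 0.09 (limma, adjusted p = 0.0019), and its other probe rose too, by 0.82. The brighter probe lies in a patch of the Dex arrays, where spots around a probe are well above background in that group alone.

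The core of complex I carries the electron path. Ndufv1, which binds NADH and its flavin, was at 6.45 and 6.41 in EtoH and between 6.82 and 7.14 on the treated arrays, a rise of 0.58 ± 0.09. Ndufv2, an iron-sulfur subunit beside it, was at 5.61 and 5.69 in EtoH and between 5.98 and 6.34 with glucocorticoid, a rise of 0.49 ± 0.06. Ndufs1, the largest iron-sulfur subunit, had 5.09 on both EtoH arrays and 5.17 to 5.45 on the treated ones, a rise of 0.26 ± 0.08. The groups did not overlap for any of these 3 genes, and the adjusted p-values from limma were 0.0027, 0.001 and 0.037. The call on Ndufs1 was lost under 14 of the 23 alternative settings, among them without either array of EtoH, VSG22 or FF or without Dex replicate 2, with changes of 0.25 to 0.27. Those on Ndufv1 and Ndufv2 held under all 23.

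Nearer the coenzyme Q site, Ndufs7 was at 5.71 and 5.63 in EtoH and between 5.97 and 6.25 on the treated arrays, a rise of 0.50 ± 0.07. Ndufs8, also an iron-sulfur subunit, was at 4.35 and 4.32 in EtoH and 4.48 to 4.81 with glucocorticoid, a rise of 0.28 ± 0.06. Ndufs3, a neighbour in the peripheral arm, had a change of 0.15 ± 0.07 that did not pass (limma, adjusted p = 0.11). Its treated arrays, 6.01 to 6.24, overlapped the EtoH arrays, at 6.02 and 5.92. The call on Ndufs8 was lost without either EtoH array (0.30 without replicate 1, 0.27 without replicate 2).

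Of the 29 accessory subunits of complex I that were tested, 17 rose, Ndufc1, Ndufa5 and Ndufb11 among them with changes of 0.59, 0.54 and 0.50. A dimmer probe of Ndufb11 gave -0.12 ± 0.11, which did not pass, and a dimmer probe of Ndufa5 rose by 0.41. Of its 4 assembly factors, 3 rose for the mean of the 4 glucocorticoids. Taken singly against EtoH, Ndufaf4 rose with all 4 glucocorticoids, Ndufaf2 with 2 and Ndufaf3 with 0. In a test of every probe by itself Ndufaf3 did not pass (limma, adjusted p = 0.057). The lowest changes in the complex were those of Ndufv3 (-0.13 ± 0.07), Ndufaf1 (-0.11 ± 0.06) and Ndufa6 (-0.07 ± 0.05), which did not pass. Ndufv3 was at 6.78 and 6.72 in EtoH and between 6.53 and 6.71 on the treated arrays, so that its groups did not overlap. On its other probe the change of Ndufv3 was -0.59 and passed.

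All 4 subunits of complex II, the succinate dehydrogenase that also belongs to the citric acid cycle, rose, with a median change of 0.33. Sdhc, a membrane anchor, was at 5.51 and 5.53 on the EtoH arrays, and at 6.21 and 6.30 in Dex, 6.28 and 6.30 in FF, 6.18 and 6.10 in VSG22 and 6.20 and 6.07 in VSGC12. The treated arrays were all above EtoH, with a rise of 0.69 ± 0.06 (limma adjusted p = 0.00029). Its second probe gave 0.17 ± 0.08, which did not pass, and the first lies in a patch of the FF arrays. Leaving out probes in such patches therefore ended the call on Sdhc.

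Sdhb, the iron-sulfur subunit, was at 7.22 and 7.10 in EtoH and between 7.36 and 7.71 with glucocorticoid, a rise of 0.39 ± 0.08. Its other probe gave 0.11 ± 0.07, which did not pass, and the mean of both probes 0.25. Sdhd, the other anchor, was at 5.99 and 5.95 in EtoH and between 5.99 and 6.41 on the treated arrays, a rise of 0.27 ± 0.08, with Dex replicate 2 level with EtoH replicate 1 to 2 decimals, on a probe in a Dex patch. Sdha, the flavoprotein, was at 5.68 and 5.76 in EtoH and between 5.86 and 6.06 on the treated arrays, a rise of 0.23 ± 0.07. The adjusted p-values from limma were 0.0083, 0.027 and 0.031. The call on Sdhb was lost without EtoH replicate 2 (0.33). Those on Sdhd and Sdha were each lost under 11 alternative settings, for Sdhd without either array of EtoH or VSG22 or without VSGC12 replicate 1 (0.25 to 0.29), and for Sdha without either array of EtoH, VSG22 or FF (0.19 to 0.27).

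Complex III, the cytochrome c reductase, had 3 of 8 genes that rose, the lowest share of the 5 complexes. Of these, Uqcr10 and Uqcr11, both small subunits, had the highest changes. Uqcr10 was at 6.31 and 6.24 on the EtoH arrays, and at 6.83 and 6.97 in Dex, 7.13 and 7.08 in FF, 7 and 6.92 in VSG22 and 7.13 and 7.12 in VSGC12. Its change was 0.75 ± 0.06 (limma adjusted p = 0.00022), and all 3 of its probes rose, the lowest by 0.36. Uqcr11 was at 5.66 and 5.42 in EtoH, and at 5.90 and 5.81 in Dex, 6.30 and 6.20 in FF, 6.29 and 6.20 in VSG22 and 6.32 and 6.30 in VSGC12. All treated arrays were above EtoH, the Dex arrays by the least, for a change of 0.62 ± 0.08 (limma, adjusted p = 0.0011). The probe of Uqcr11 lies in a Dex patch.

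The other 6 genes of complex III had changes of 0.20 or less. Uqcrc1, a core structural protein, was at 4.67 and 4.71 in EtoH and between 4.76 and 4.98 with glucocorticoid, a rise of 0.20 ± 0.06 that was lost under 11 alternative settings, among them without either array of EtoH or VSG22 or without VSGC12 replicate 2 (0.18 to 0.22). Its partner Uqcrc2 was at 6.05 and 6.03 in EtoH and between 6.01 and 6.14 on the treated arrays, with a 95% interval of its change from -0.10 to 0.18, and its sign turned under 2 other scalings. Uqcrfs1, the Rieske iron-sulfur protein, was at 5.89 on both EtoH arrays and between 5.91 and 6.11 on the treated ones, a change of 0.13 ± 0.05 that did not pass (limma, adjusted p = 0.086). Uqcrb, Uqcrq and Uqcrh had changes of 0.16, 0.16 and 0.03 on their brightest probes that did not pass either. Another probe of Uqcrb rose by 0.42 ± 0.09 and another of Uqcrq by 0.30 ± 0.06.

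Complex IV had 10 of 16 genes that rose and 1 that fell, with a median change of 0.46. Cox7b, a small membrane subunit, was at 6.37 and 6.18 in EtoH and between 6.80 and 7.15 on the treated arrays, a rise of 0.68 ± 0.07 (limma adjusted p = 0.00053). Cox5a and Cox5b, nuclear subunits that bind the catalytic core, were at 7.98 on both EtoH arrays and 7.14 and 7.09. With glucocorticoid Cox5a lay between 8.33 and 8.59 and Cox5b between 7.62 and 7.80, rises of 0.49 ± 0.07 and 0.58 ± 0.06. Neither gene's groups overlapped, and both calls held under all 23 alternative settings.

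Cox8a was at 8.21 and 8.13 in EtoH and between 8.51 and 8.88 with glucocorticoid on its brighter probe, a rise of 0.58 ± 0.09. Its other probe was at 6.80 and 6.81 in EtoH and between 7.09 and 7.32 on 7 treated arrays, but at 3.42 on Dex replicate 1, and its change of -0.10 ± 0.79 did not pass. With the mean of both probes the change was 0.24 and the call was lost.

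Several complex IV subunits come as a widely expressed form and a form known mainly from other tissues. Cox4i1, the common form of subunit 4, was at 7.28 and 7.22 in EtoH and between 6.84 and 7.13 on the treated arrays, all below EtoH. Its change of -0.24 ± 0.10 did not pass (limma, adjusted p = 0.088) and passed under 4 alternative settings, 1 of them without FF replicate 1 (-0.27). Cox4i2, the form known from lung and from low oxygen, was at 1.5 and 1.57 in EtoH, and at 0.71 and 4.02 in Dex, 3.03 and 4.17 in FF, 3 and 2 in VSG22 and 1.99 and 3.48 in VSGC12. It was above EtoH on 7 of the 8 treated arrays, and the replicates differed so widely that its change of 1.26 ± 0.84 did not pass (limma, adjusted p = 0.26). It was 1.68 without Dex replicate 1, which passed, and 0.85 without Dex replicate 2, which did not.

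Cox6a1, the common form, had a change of 0.20 ± 0.07 that did not pass, except under 4 alternative settings (0.22 without Dex replicate 1), and Cox6a2, known from heart and skeletal muscle, rose by 0.48 ± 0.11. Cox6a2 was at 1.57 and 1.29 in EtoH and between 1.81 and 2.13 on the treated arrays, without overlap, and its probe lies in a Dex patch. Its call was lost without EtoH replicate 2 (0.34). Cox6b1, the common form, rose by 0.40 ± 0.06, from 2.94 and 2.85 to between 3.21 and 3.39, and its probe too lies in a Dex patch. Cox6b2, known from testis, was the only one of the 86 genes that fell, by 0.74 ± 0.17 (limma, adjusted p = 0.014). It was dim, at -2.21 and -2.22 in EtoH and between -3.45 and -2.39 on the treated arrays, and its call was lost without either EtoH array (-0.73 and -0.74). With normexp background correction its change was -0.37.

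Cox7a2, the common form of subunit 7a, rose by 0.56 ± 0.06, from 5.79 and 5.77 to between 6.22 and 6.47. Cox7a1, known from muscle, was at 0.61 and 0.44 in EtoH and between 0.10 and 0.65 on the treated arrays, and Cox7a2l, which joins complexes III and IV, at 8.12 and 8.02 and between 7.95 and 8.31. Their changes of -0.09 ± 0.13 and 0.05 ± 0.08 did not pass, and both turned sign under another setting. The testis and muscle forms Cox7b2, Cox8b and Cox8c were not well above background on any array.

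Ndufa4 bears a complex I name but is a subunit of complex IV. It was at 5.33 and 5.25 in EtoH, and at 5.57 and 5.65 in Dex, 6.13 and 5.71 in FF, 5.91 and 5.84 in VSG22 and 6.19 and 5.79 in VSGC12. All treated arrays were above EtoH, with a rise of 0.56 ± 0.14 (limma, adjusted p = 0.016) that was lost without either EtoH array (0.60 without replicate 1, 0.52 without replicate 2). AA467197, also called Nmes1, encodes a paralog of Ndufa4 that is known to be induced in LPS-activated macrophages, and its name falls outside the rule. On the array its probe lies at chr2:122466640-122466699 of mm9. It was at 3.32 and 3.41 in EtoH, and at 1.24 and 1.17 in Dex, 0.72 and 0.91 in FF, 0.58 and 0.67 in VSG22 and 0.80 and 0.98 in VSGC12. AA467197 thus lay far below EtoH on all 8 treated arrays, with a change of -2.48 ± 0.08 (limma adjusted p = 5.6e-06), and the call held under all 23 alternative settings. Ndufa4l2, a further paralog known from low oxygen, was well above background on VSG22 replicate 2 and VSGC12 replicate 2 only and was not tested.

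**Figure D3:**
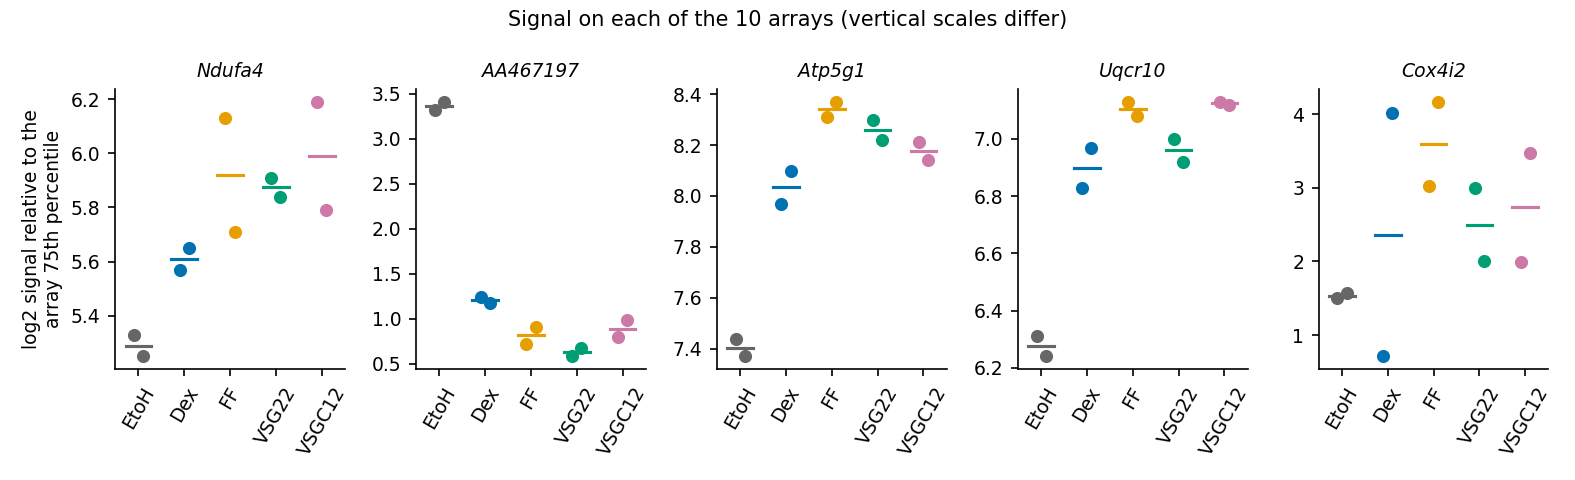
Log2 level relative to the array 75th percentile (vertical axis, scale differing by panel) of 5 genes on each array by group; dots are arrays and bars the mean of the 2 arrays. Ndufa4, Atp5g1 and Uqcr10 lie above EtoH on all 8 treated arrays, AA467197 lies below EtoH on all 8, and Cox4i2 spreads from 0.71 to 4.02 within Dex.

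Complex V, the ATP synthase, had the highest share of the larger complexes, with 12 of 15 genes that rose and a median change of 0.45. Its membrane ring is built of subunit c, for which Atp5g1, Atp5g2 and Atp5g3 encode the same mature protein. Atp5g1 was at 7.44 and 7.37 on the EtoH arrays, and at 7.97 and 8.10 in Dex, 8.31 and 8.37 in FF, 8.30 and 8.22 in VSG22 and 8.21 and 8.14 in VSGC12. Every treated array was above EtoH, and the rise of 0.79 ± 0.07 (limma adjusted p = 0.00019) was the largest among the genes that rose. Atp5g2 was at 7.80 and 7.77 in EtoH and between 8.03 and 8.72 with glucocorticoid, a rise of 0.54 ± 0.15. Atp5g3 was at 7.10 and 7.11 in EtoH and between 7.39 and 7.59, a rise of 0.38 ± 0.06, or of 0.64 with normexp background correction. All 3 genes for subunit c thus rose, although the call on Atp5g2 was lost without either EtoH array (0.56 without replicate 1, 0.52 without replicate 2).

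Atp5j2, Atp5k and Atp5l encode small subunits of the membrane part. Atp5j2, subunit f, was at 6.16 and 6.09 in EtoH and between 6.70 and 6.98 on the treated arrays, a rise of 0.73 ± 0.06 with both of its probes higher. Atp5k, subunit e, whose promoter is printed above, was at 5.68 and 5.59 in EtoH and between 6.03 and 6.55 with glucocorticoid, a rise of 0.61 ± 0.10. Its dimmer probe gave 0.24 ± 0.11, which did not pass. Atp5l, subunit g, was at 7.35 and 7.29 in EtoH and between 7.3 and 7.64 on the treated arrays, with Dex replicate 2 inside the EtoH range. Its rise of 0.21 ± 0.06 was the lowest that passed in the complex and held under 10 of the 23 alternative settings. All 5 of its probes rose, the highest by 1.05 on a probe in a Dex patch. Of the head that makes ATP, Atp5a1, the alpha subunit, was at 6.45 and 6.51 in EtoH and between 6.88 and 7.07 on the treated arrays, a rise of 0.50 ± 0.06. Atp5c1, the gamma subunit, was at 6.56 and 6.48 and between 6.87 and 7.10, a rise of 0.46 ± 0.08, on a probe in a Dex patch, lost without EtoH replicate 2 (0.42). Its other probe, outside the patch, gave 0.22 ± 0.07, which passed. Atp5b, the catalytic beta subunit, was at 9.01 and 8.96 and between 9.11 and 9.5, a rise of 0.26 ± 0.08 (limma, adjusted p = 0.047) that was lost under 14 alternative settings, among them without any single array other than those of Dex (0.23 to 0.28). The groups did not overlap for any of these 3. Atp5f1, Atp5j and Atp5d, subunits of the stalks, had changes of 0.12, 0.09 and 0.05 that did not pass.

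Of the 24 genes with more than 1 tested probe, all probes rose in 11, some rose and none fell in 9, none passed in 2, and in Cox7a2l and Ndufv3 1 probe fell and none rose. In 0 genes did probes pass in opposite directions. A test of every probe by itself gave 72 of 117 that rose and 3 that fell, where 20.6% of all probes rose. The size could differ between probes of a gene, as in Ndufb2, with 0.18 on its brightest probe, which lies in an FF patch, and 0.72 on its other probe.

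Genes of the chain also rose in each glucocorticoid group taken alone. Against EtoH, 36 of the 86 genes rose with Dex (41.9%, against 16.5% of all genes), 46 with FF (53.5%, against 17.9%), 47 with VSG22 (54.7%, against 16.1%) and 48 with VSGC12 (55.8%, against 17.2%). Cox6b2 was the 1 gene that fell with Dex and with FF, where 15.7% and 19.1% of all genes fell and 32.2% and 37.1% passed in either direction, and 0 fell with VSG22 or VSGC12, for which limma gave Cox6b2 adjusted p-values of 0.053 and 0.28. Median changes over the 86 genes were 0.27, 0.31, 0.31 and 0.34 in that order. In all 4 comparisons 30 genes rose, in 3 of them 11, in 2 of them 10, in 1 of them 4 and in none 31. The 30 include 11 genes of complex I, 1 each of complexes II and III, 8 of complex IV, 7 of complex V and 2 look-alike names. The 4 comparisons share the EtoH arrays, so their calls are not independent.

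These counts depended on single arrays. With Dex, 14 genes rose without EtoH replicate 2, 18 without EtoH replicate 1 and 22 without Dex replicate 2. With FF, 27 rose without EtoH replicate 2 and 26 without FF replicate 1. For VSG22 the counts were 24 and 23 without EtoH replicate 1 and 2, and 19 and 23 without VSG22 replicate 1 and 2, and for VSGC12 they were 23 without EtoH replicate 2 and 27 without VSGC12 replicate 1. With the array median subtracted, 0 genes passed for Dex by limma, 9 for FF, 1 for VSG22 and 7 for VSGC12. For Dex 18 then had an unadjusted p under 0.05. Without a filter on dim probes 10, 22, 16 and 21 of 90 genes passed, in the same order. Patches of spots covered the probes of 9 of the 86 genes in Dex, 3 in FF, 1 in VSG22, 0 in VSGC12 and 1 in EtoH. In Dex they covered 9.55% of all genes tested. The part of the patches in the results was tested only by leaving those probes out.

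**Figure D4:**
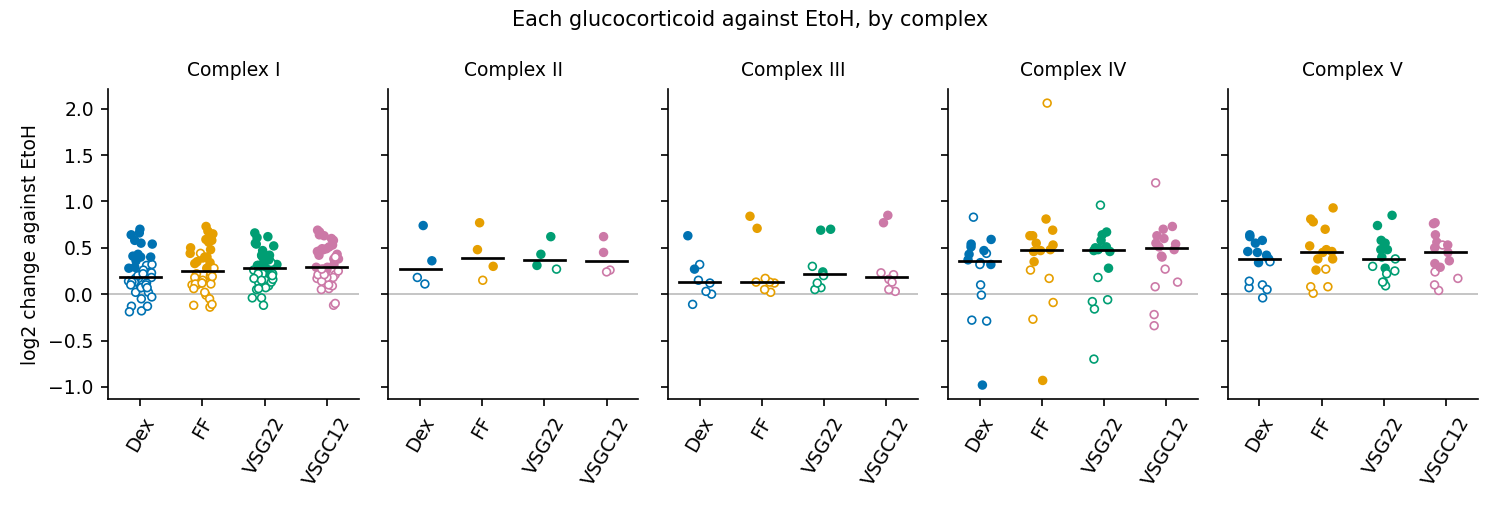
Log2 change of each gene against EtoH (vertical axis) for each glucocorticoid, by complex; filled dots passed the adjusted threshold, open dots did not, and black bars are medians. Medians lie between 0.13 and 0.50 in every complex and treatment, with complex III lowest and complexes IV and V highest in each.

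Set against each other at the same dose and time, the glucocorticoids could not be told apart on these genes after adjustment. In the 6 pairs, limma called 0 of the 86 genes, also when p-values were adjusted over the 6 pairs together, and its F-test over the 4 groups called 0. At an unadjusted p under 0.05 the F-test gave 5 genes, and the pairs gave 13 for FF against Dex, 14 for VSG22 against Dex, 14 for VSGC12 against Dex, 2 for VSG22 against FF, 2 for VSGC12 against FF and 1 for VSGC12 against VSG22. Over all genes, 0.371%, 0.554%, 0.393%, 0%, 0.00555% and 0% passed after adjustment, in the same order, and 0.255% in the F-test. At the unadjusted level the shares for FF, VSG22 and VSGC12 against Dex were 15.1%, 16.3% and 16.3% of these genes, beside 14.4%, 16.7% and 14.8% of all genes, so these genes were near the background. For VSG22 against FF, VSGC12 against FF and VSGC12 against VSG22 they were 2.33%, 2.33% and 1.16%, beside 9.47%, 4.20% and 7.15%.

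The median difference over the 86 genes was 0.07 for FF, 0.08 for VSG22 and 0.12 for VSGC12 over Dex, and between -0.01 and 0.05 for the other pairs. A 95% interval for a difference of a gene, not adjusted for the number of genes, reached 0.21 to either side at the median. Differences of that size, and also larger ones, could therefore miss the adjusted threshold. A missed threshold does not show that the compounds act alike. Uqcr11 came nearest in the pairs with Dex. It was higher by 0.39 in FF (95% interval 0.15 to 0.63), by 0.39 in VSG22 (0.15 to 0.63) and by 0.46 in VSGC12 (0.22 to 0.69), with limma adjusted p-values of 0.20, 0.14 and 0.16. Its probe lies in a Dex patch. Atp5g1 was higher by 0.31 in FF than in Dex (0.11 to 0.50; limma adjusted p = 0.21).

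Genes that serve the chain without matching the rule were counted in lists. Of 11 measured mobile carriers and other chain genes, 6 rose (54.5%) and 2 fell, with a median change of 0.29, where 21.6% of all genes rose and 22.5% fell. Cytochrome c itself, Cycs, was at 7 and 7.07 in EtoH and between 7.27 and 7.45 on the treated arrays, a rise of 0.29 ± 0.06 that was lost without EtoH replicate 1 (0.26). Cyc1, the cytochrome of complex III, was at 5.47 and 5.51 and between 5.61 and 5.96, a rise of 0.34 ± 0.05 on a probe in a Dex patch. Atpif1, the inhibitor of the ATP synthase, rose from 7.31 and 7.15 to between 7.82 and 8.10, by 0.76 ± 0.08, and the ADP/ATP carrier Slc25a4 rose by 0.54. The genes that fell were AA467197 and Higd1a, a small protein that binds complex IV, with -0.62 ± 0.10. Cox17, the copper chaperone of complex IV, was at -0.10 and -0.22 in EtoH, and at 2.53 and 4.69 in Dex, 2.57 and 1.86 in FF, 1.06 and 0.69 in VSG22 and 2.36 and 1.77 in VSGC12. Its change of 2.35 ± 0.51 passed on 1 of its 3 probes and was lost without either EtoH array (2.41 without replicate 1, 2.29 without replicate 2). Its other probes were above background on 0 and 3 arrays.

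Of 40 assembly factors outside the rule, 11 rose and 4 fell, with a median change of 0.11, so that their share that rose, 27.5%, lay near that of all genes (21.6%). Cox17 is counted in this list as well as among the mobile carriers and other chain genes. Lrpprc, which stabilises mitochondrial messenger RNA, rose by 0.83 ± 0.07, and the succinate dehydrogenase assembly factors Sdhaf1 and Sdhaf4 rose by 0.60 and 0.56. Coa5, Surf1, Cox11 and Cox19, which serve complex IV assembly, fell by 0.64, 0.34, 0.36 and 0.33. Averaging the probes of Coa5 gave -0.23, and subtracting the array median gave -0.52, which did not pass. Of 10 genes of coenzyme Q synthesis 4 rose (40.0%) and 1 fell, with a median of 0.16. Of these, Coq4 rose by 0.63 ± 0.07 and Coq10a fell by 0.62 ± 0.13, a call lost without either EtoH array (-0.56 and -0.68).

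Protein import had the highest share, with 16 of 21 genes that rose (76.2%), 0 that fell and a median of 0.42. Timm10, a chaperone between the membranes, was at 4.61 and 4.45 in EtoH and between 5.32 and 5.56 on the treated arrays, a rise of 0.92 ± 0.08, and the import receptor Tomm70a and the chaperonin Hspd1 rose by 0.74 and 0.71. In the citric acid cycle and itaconate list 15 of 22 rose (68.2%) and 2 fell, with a median of 0.29. Idh3a, a subunit of NAD-dependent isocitrate dehydrogenase, was at 4.67 and 4.57 in EtoH and between 5.36 and 5.77 on the treated arrays, a rise of 0.99 ± 0.08. Dlat, of the pyruvate dehydrogenase complex, rose by 0.82 ± 0.07 on a probe in a VSGC12 patch, and Ogdh rose by 1.03 ± 0.26, a call lost without either EtoH array (0.97 and 1.09) and with the mean of its probes (0.23). Dlst, of the oxoglutarate dehydrogenase complex, and the kinase Pdk2 fell by 0.27 and 0.54. Acod1, which makes itaconate, had a change of 0.06 ± 0.05 that did not pass.

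Among 18 regulators of mitochondrial biogenesis 6 rose (33.3%) and 2 fell, with a median of 0.23, where 21.6% of all genes rose and 22.5% fell. Of the genes in the signal range of the respiratory chain genes 33.4% rose, but that range was not matched to the signal of these regulators. Tfb1m, which modifies mitochondrial ribosomal RNA, was at 3.06 and 3.46 in EtoH and between 4.22 and 4.35 on the treated arrays, a rise of 1.04 ± 0.10, and Tfb2m, Tfam and Gabpb1 rose by 0.43, 0.28 and 0.44. Myc fell by 1.77 ± 0.15, from 1.38 and 1.49 to between -0.63 and 0.01, and the coactivator Ppargc1b fell by 0.73 ± 0.12. Of the factors whose motifs were searched, Nrf1, Gabpa and Yy1 had changes of 0.40 ± 0.27, 0.18 ± 0.07 and -0.11 ± 0.10 that did not pass. Of 7 probes named for genes of mitochondrial DNA, 1 rose (14.3%), ND6, by 0.89 ± 0.25, with treated arrays that overlapped EtoH (0.25 to 1.06 against 0.25 and -0.46), a probe in a VSGC12 patch and a call lost without EtoH replicate 2 (0.54) or replicate 1 of VSG22, FF or VSGC12 (0.85 to 0.88). ND1, ND2, ND4, ND5, COX1 and CYTB had changes between -0.21 and 0.39 that did not pass.

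**Figure D5:**
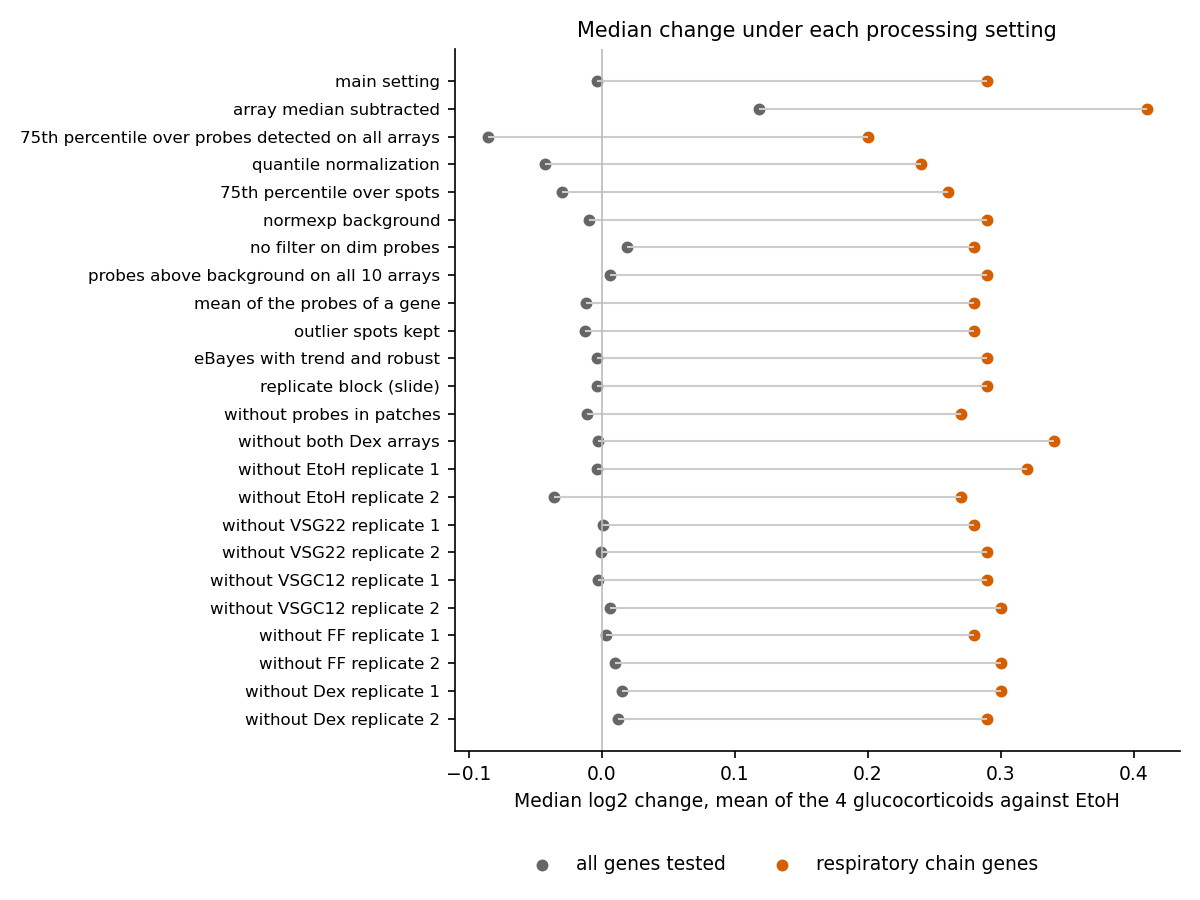
Median log2 change of the respiratory chain genes (orange) and of all genes tested (grey) for the mean of the 4 glucocorticoids against EtoH (horizontal axis), under the main setting and each of 23 alternatives (vertical axis). The distance between the medians lies between 0.26 and 0.34 in every setting, while the position of both moves with the scaling. A scaling that only subtracts another value from each array cannot change this distance, nor can a change of the variance model alone.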

How the data were processed

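RNA of 10 samples of RAW264.7 cells was hybridised to one-colour Agilent arrays on 2 slides, each holding all 5 groups. Per the file headers, the deposited values are intensity from Agilent Feature Extraction 10.7.3.1, background-subtracted and detrended within the array but not scaled between arrays. The submitters' processing notes name limma without a step. Between 40.1% and 44.4% of spots were well above background and 0 were saturated, and the array 75th percentile ran from 315.3 to 428.5. Precision is limited by there being 2 arrays a group.

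Spots marked as outliers were dropped, log2 signals were averaged per probe, and each array's 75th percentile over probes was subtracted. A gene was represented by its brightest probe among those well above background on both arrays of at least 1 group. All 5 groups entered a single limma model (version 3.58.1 under R 4.3.3, by lmFit and eBayes, 5 residual and 1.81 prior degrees of freedom), two-sided, with Benjamini-Hochberg adjustment and a threshold of 0.05. On simulated data of 18056 genes, 72% of 200 genes with a log2 change of 1 were recovered for the mean of the 4 against EtoH. There were 6 false calls. The genes of the chain that rose had changes of 0.18 to 0.79, and recovery at such sizes was not tested. In the measured data 44.2% of all genes passed in either direction for the mean of the 4. Recovery and false calls at that share were not tested. A probe lies in a patch where at least 3 of the 24 spots around it are well above background in 1 group only. Probe positions are those of the files on mm9.

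Named genes are, per complex, the 3 highest rises and up to 2 largest falls that passed for the mean of the 4, so the weakest rises were not named by rule. They also include a set of core subunits, isoform families and up to 2 that passed per pair of glucocorticoids. Up to 3 that passed per pathway list were named too, with AA467197, Cycs and Cyc1. Others named were chosen after their values were seen. The values of 1 complex I gene are not reported here, although it enters the counts. The members and lists were chosen with earlier results of these data known. Across genes, the departure of an array from its group mean correlated with that of other groups on its slide by -0.04 to 0.32, so the replicate number was not taken to pair the samples, and the slide block was an alternative only. Alternatives varied the scaling, background, filter, probe rule, flags, variance model, slide block, patches and arrays; the 75th percentile over spots was added after seeing the data.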

Additional observations from a re-analysis of the deposited data

How the results depend on the processing

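The 23 alternative settings kept the direction of the main comparison. The respiratory chain genes tested numbered 86 in the main setting, 78 without probes in patches and 90 without a filter on dim probes. Of the 56 genes that rose 0 fell under any setting, while 19 rose under all that tested them. The median change of the respiratory chain genes minus that of all genes lay between 0.26 and 0.34 in each setting. The distance between these medians cannot change where a setting only subtracts another value from each array or only changes the variance model. Such settings therefore do not test that distance. The counts of genes that passed moved more. Subtracting the array median gave 24 for the mean of the 4, 0 for Dex (18 at an unadjusted p under 0.05 by limma), 9 for FF, 1 for VSG22 and 7 for VSGC12, and raised the share of higher among all calls to 70.3% from 49%; this share was 38.5% with the 75th percentile over probes detected on all arrays and 43.8% with quantile normalization. Without a filter on dim probes the counts were 32, 10, 22, 16 and 21 of 90 genes. Leaving out 1 array at a time gave 31 to 58 genes for the mean of the 4, 14 to 36 for Dex, 26 to 48 for FF, 19 to 43 for VSG22 and 23 to 49 for VSGC12, and 0 to 1 for FF against Dex, 0 to 2 for VSG22 against Dex, 0 to 1 for VSGC12 against Dex and 0 to 1 for the F-test. With a replicate block the counts were 57, 41, 47, 49 and 47; the block ended the call on Atp5b (adjusted p = 0.061 by limma), gave one to Cox4i1 (0.036) and changed no other call of a named gene. Signs turned for Cox7a1 (0.03 with the array median), Cox7a2l (-0.03 with the percentile over detected probes, -0.09 with the mean of probes) and Uqcrc2 (-0.04 with the percentile over detected probes, -0.05 with quantile normalization), none of which passed. The causes were not tested. With 2 arrays a group the precision is limited: the lowest rise that passed was 0.18, and Ndufs5 at 0.31 did not pass.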
